A study of Mus musculus with 12 samples.

Results

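The transcripts described are those of 10 genes of iron and heme handling in alveolar macrophages: the exporter Slc40a1 and the ferroxidase Cp, the uptake genes Tfrc, Slc11a1, Slc11a2 and Cd163, the ferritin genes Fth1 and Ftl1, and the heme breakdown genes Hmox1 and Blvrb. They were chosen by gene symbol as genes of this pathway, with earlier results of these data known, and each had exactly 1 probe set among 19505 gene symbols on the array. RNA came from lung macrophages of male C57 Black mice that had lost 70% of the liver 1, 3 or 7 days earlier, or whose liver was intact. The treatment text of the labels also speaks of macrophages cultured with other cells and growth factors, which the titles and the design do not mention. Each of these 4 groups had 3 arrays, labelled as biological replicates. The cells were isolated with magnetic beads carrying an antibody to Siglec F, a surface protein of alveolar macrophages that eosinophils also carry. All values below are log2 signals, so that a difference of 1 is a doubling.

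Macrophages recycle iron. They engulf red cells or take up hemoglobin and transferrin, break the heme ring down to iron, carbon monoxide and biliverdin, and either store the iron inside ferritin or return it to the blood through ferroportin. In the lung, alveolar macrophages also take up iron that reaches the airspace and so keep it from microbes and from redox chemistry.

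Alveolar macrophage markers were present on every array. The log2 of the summed signal of 14 measured alveolar macrophage markers lay between 13.75 and 14.09 on the 9 resected arrays, against 13.86 to 14.11 on the 3 intact ones. Such a sum mostly follows the brightest markers. Singly, 9 of the 14 were lower than in intact mice at day 1, 10 at day 3 and 9 at day 7, with 3, 1 and 0 of them at an unadjusted p under 0.05 and 0 past the adjusted threshold in limma. Of all probe sets, 8.94%, 4.46% and 5.7% had an unadjusted p under 0.05, and 0%, 0.0045% and 0.018% passed the adjusted threshold. The differences of the 14 markers ran from -1.06 to 0.21 at day 1, -0.87 to 0.26 at day 3 and -0.57 to 0.48 at day 7. Siglecf itself differed by -0.46, -0.25 and -0.060 on these days. The arrays were not equal in quality. On 3 of them, replicate 2 of day 1, replicate 1 of day 3 and replicate 2 of day 7, exon controls separated from intron controls less well (area under the curve 0.809 to 0.837) than on the other 9 (0.852 to 0.888). These are called the weak arrays below, and member differences from intact that rest on them are given with and without them. Marker sums are given over all 12 arrays unless stated. Replicate 1 of day 3 and replicates 2 and 3 of day 7 also carried the labelling control dap at 6.47 to 7.77, against 2.13 to 2.89 on the other 9 arrays. The hybridisation control bioB lay at 8.62 to 10.29 at day 1, 7.44 to 7.83 at day 3 and 8.19 to 8.55 at day 7, against 7.53 to 7.72 in intact mice, so that it separated days 1 and 7 from intact. Its part in the results was not tested. The level above which 5% of the intron controls lay, used as a limit of detection, was between 5.01 and 5.69 on the 12 arrays. Background was not equal between the groups. The limit was 5.24 or lower on every intact array and 5.41 or higher on every day 3 array. Limits of days 1 and 7 overlapped those of intact mice. The median intron control lay between 2.393 and 2.434 on the intact arrays, and between 2.438 and 2.755 on the 9 resected ones. The part of this background in the Slc40a1 values was not tested. By the limit of detection, Hmox1, Fth1 and Ftl1 were detected on 12 arrays, and Slc11a1 and Blvrb on 11. Slc40a1 was detected on 6, Cp on 5, and Tfrc, Slc11a2 and Cd163 on 0.

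Slc40a1, which encodes ferroportin, the protein that exports iron from cells, was the member that differed most from intact mice. Its signal was 4.18, 3.77 and 4.03 on the 3 intact arrays, 5.70, 5.23 and 5.65 at day 1, 5.17, 5.66 and 6.66 at day 3, and 5.82, 5.04 and 5.79 at day 7. All 9 arrays of resected mice lay above all 3 intact arrays, and the day groups overlapped one another. The intact values were all below the detection limit, so the fold changes start from a signal that cannot be told from background.

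The mean of Slc40a1 was 5.52 ± 0.26 at day 1, against 3.99 ± 0.21 in intact mice (SD, n = 3 each). This is a difference of 1.53 ± 0.33 (SE), or 2.89-fold with a 95% interval of 1.75 to 4.77. At day 3 the mean was 5.83 ± 0.76 (SD, n = 3) and the difference from intact 1.83 ± 0.33 (SE), or 3.57-fold with an interval of 2.16 to 5.89. At day 7 the mean was 5.55 ± 0.44 (SD, n = 3) and the difference 1.55 ± 0.33 (SE), or 2.94-fold with an interval of 1.78 to 4.85. The 3 differences share the intact arrays. None passed the threshold of 0.05 after Benjamini-Hochberg adjustment over all 22206 probe sets in limma, with adjusted p = 0.248 at day 1, 0.187 at day 3 and 0.256 at day 7. By unadjusted p, Slc40a1 ranked 52nd, 14th and 41st of these probe sets at the 3 days.

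With the resected groups pooled, Slc40a1 averaged 5.63, against 3.99 in intact mice, a difference of 1.64 ± 0.27 (SE) with adjusted p = 0.0710 in limma. Across all probe sets, 0.518% had all 9 resected arrays above all 3 intact ones. The pooled difference of Slc40a1 passed in some alternatives, both where the weak arrays counted less and where all 12 counted alike. With all arrays alike, the pooled adjusted p was 0.0440 under trend and robust moderation, 0.0452 without dim probe sets, 0.0173 after quantile normalization and 0.0371 with a term for the labelling control. With array weights in limma the adjusted p was 0.0347 at day 1, 0.00152 at day 3, 0.00864 at day 7 and 0.000657 for the pooled groups. Without the weak arrays it was 0.0191, 0.00318, 0.00658 and 0.000819, with differences of 1.68, 2.16, 1.81 and 1.88. In that fit 0.32%, 1.13%, 1.26% and 1.78% of all probe sets passed. In each resected group the weak array had the lowest Slc40a1 signal, and all 3 were below the detection limit while the other 6 were above it. Leaving out replicate 2 of day 1 alone brought the pooled adjusted p to 0.0401, and leaving out replicate 1 of day 3 alone to 0.0191.

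Between days, Slc40a1 did not differ beyond the spread. The difference was 0.30 (95% interval -0.42 to 1.03) for day 3 against day 1, -0.28 (-1.01 to 0.44) for day 7 against day 3, and 0.02 (-0.70 to 0.75) for day 7 against day 1. In order of mean signal the groups ran day 3, day 7, day 1 and intact, and the arrays separated only at the step from day 1 to intact.

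**Figure D1:**
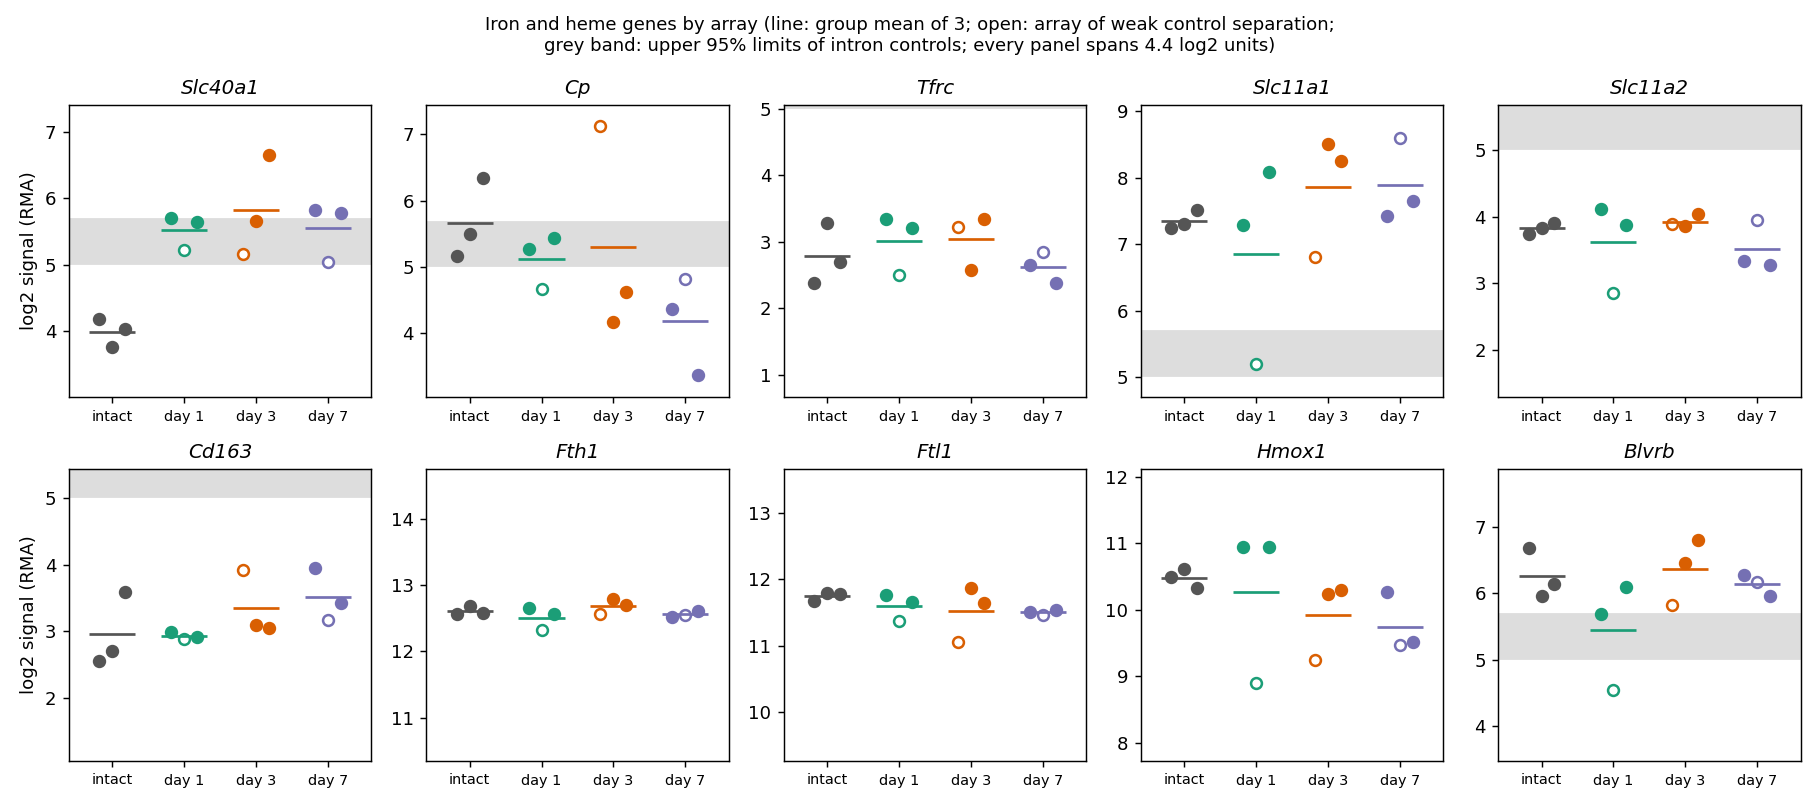
Log2 signal of the 10 genes on each of the 12 arrays, by group from intact to day 7, with a line at the mean of 3 arrays; open points are the 3 weak arrays and the grey band spans the detection limits (5.01 to 5.69). Every resected array of Slc40a1 lies above the intact arrays, while Fth1 and Ftl1 hardly spread and Tfrc, Slc11a2 and Cd163 lie below the band throughout.

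Cp encodes ceruloplasmin, a copper ferroxidase that loads exported iron onto transferrin. Its signal was 5.16, 5.50 and 6.34 in intact mice, 5.27, 4.67 and 5.43 at day 1, 7.12, 4.17 and 4.62 at day 3, and 4.36, 4.83 and 3.37 at day 7. All day 7 arrays lay below all intact arrays, and the highest value of the 12 was on a weak array, replicate 1 of day 3. At day 7 the mean was 4.19 ± 0.74, against 5.67 ± 0.61 in intact mice (SD, n = 3 each), a difference of -1.48 ± 0.64 (SE) with a limma adjusted p = 0.831. The difference was -0.55 at day 1 and -0.37 at day 3, with intervals that reached both sides of 0. With array weights the day 7 difference was -1.91 with a limma adjusted p = 0.0494, and without the weak arrays it was -1.80 with an adjusted p = 0.0251. The day 3 difference was -1.27 without the weak arrays (adjusted p = 0.132) and 0.20 without replicate 2 of day 3.

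Of the uptake genes, Slc11a1 was the one detected. It encodes NRAMP1, which pumps iron and manganese out of the phagosome of macrophages and is known for resistance to intracellular microbes in mice. Only the transcript was measured, and whether the protein worked in these C57 Black mice was not tested. Its signal was 7.24, 7.30 and 7.52 in intact mice, 7.29, 5.19 and 8.09 at day 1, 6.81, 8.50 and 8.26 at day 3, and 7.42, 8.60 and 7.65 at day 7. The intact arrays were close together, and the resected arrays lay on both sides of them, with the 2 lowest values of all on weak arrays. The differences from intact were -0.49 ± 0.63 at day 1, 0.50 ± 0.63 at day 3 and 0.54 ± 0.63 at day 7 (SE; limma adjusted p = 0.819 or more in each). Without the weak arrays the day 3 difference was 1.03 ± 0.22 (SE) and missed the threshold with an adjusted p = 0.0550, and the day 1 difference turned to 0.34, as it did without replicate 2 of day 1 alone. The day 7 difference was then 0.18, also without replicate 2 of day 7 alone.

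Slc11a1 and Blvrb, described further below, were the pair of members most alike over the 12 arrays (r = 0.81, and 0.43 over the 9 arrays that are not weak). Both had their lowest value on the weak array of day 1. Over the 9 arrays other pairs were more alike, such as Ftl1 with Slc11a2 (r = 0.71) and Hmox1 with Slc11a2 (r = 0.70). The core of the antioxidant response element, the site of the stress factor NRF2, is written TGANNNNGC and was searched on both strands. Among the 7 members with a matched window, only Slc11a1 and Blvrb held it in a window. The first window of each is shown for that reason, from RefSeq on GRCm38.p6, as the 250 bases before a transcript start, on the plus strand, with the motif in capitals. They lie at chr1:74374953-74375202 and chr7:27447728-27447977, and in the Blvrb window the motif reads on the opposite strand.
Slc11a1: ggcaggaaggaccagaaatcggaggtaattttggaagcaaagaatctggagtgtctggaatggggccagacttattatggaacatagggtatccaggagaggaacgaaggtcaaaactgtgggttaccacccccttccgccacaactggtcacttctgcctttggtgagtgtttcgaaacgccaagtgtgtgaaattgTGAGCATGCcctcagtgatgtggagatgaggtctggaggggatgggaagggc
Blvrb: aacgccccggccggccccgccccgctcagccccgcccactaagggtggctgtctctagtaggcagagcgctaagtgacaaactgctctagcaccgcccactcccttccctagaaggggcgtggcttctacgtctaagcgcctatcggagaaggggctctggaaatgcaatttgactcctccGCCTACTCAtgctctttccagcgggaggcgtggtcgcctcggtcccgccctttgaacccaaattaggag
RefSeq windows were matched for 7 of the 10 members, and 3 of their 11 windows held the motif, against 35.2% of all 32841 windows. A link between the motif and the likeness of Slc11a1 and Blvrb was not tested. Slc40a1, Hmox1 and Slc11a2 had no matched window and are named only.

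Tfrc, Slc11a2 and Cd163 stayed below the detection limit on all 12 arrays, so their values describe background as much as transcript. Tfrc encodes the transferrin receptor and ranged from 2.38 to 3.35 over the 12 arrays. Slc11a2 encodes DMT1, which moves iron out of endosomes, and ranged from 2.86 to 4.12. Cd163, the receptor for hemoglobin bound to haptoglobin, ranged from 2.55 to 3.95. Every group of Tfrc and of Slc11a2 overlapped the intact group. At day 7 the Slc11a2 overlap came from the weak array, at 3.95, the other arrays being at 3.33 and 3.27. The intact arrays of Slc11a2 lay at 3.73 to 3.91. Without the weak arrays its day 7 difference from intact was -0.52 ± 0.16 (SE; limma adjusted p = 0.176). Cd163 was 2.98, 2.88 and 2.92 at day 1, and the day 3 and day 7 arrays all lay above these, from 3.04 to 3.93 and from 3.16 to 3.95. Its difference was 0.59 ± 0.31 for day 7 against day 1 and 0.56 ± 0.31 for day 7 against intact (SE; limma adjusted p = 0.750 and 0.950). Without the weak arrays the latter was 0.74 ± 0.27 (SE; limma adjusted p = 0.293).

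Fth1 and Ftl1 encode the heavy chain of ferritin, which oxidises iron for storage, and the light chain, which helps to build the iron core. Fth1 was 12.56, 12.69 and 12.57 in intact mice, 12.65, 12.31 and 12.56 at day 1, 12.56, 12.79 and 12.70 at day 3, and 12.52, 12.55 and 12.61 at day 7. Ftl1 was 11.68, 11.79 and 11.78 in intact mice, 11.77, 11.38 and 11.66 at day 1, 11.06, 11.88 and 11.64 at day 3, and 11.50, 11.46 and 11.54 at day 7. The ferritin signals were the steadiest of the 10, with an SD over the 12 arrays of 0.12 for Fth1 and 0.23 for Ftl1. For Fth1 the differences from intact were -0.10 at day 1, 0.08 at day 3 and -0.05 at day 7, and the 3 intervals ran within -0.42 and 0.40. For Ftl1 they were -0.15, -0.23 and -0.25, and all 3 day 7 arrays lay below all 3 intact ones (limma adjusted p = 0.9999 at day 7). Without replicate 1 of day 3 the Ftl1 difference at day 3 was 0.01.

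Hmox1 encodes heme oxygenase 1, the inducible enzyme that opens the heme ring. Its signal was 10.49, 10.62 and 10.33 in intact mice, 10.95, 8.90 and 10.95 at day 1, 9.24, 10.24 and 10.30 at day 3, and 10.27, 9.46 and 9.51 at day 7. All arrays of day 3 and day 7 lay below all intact arrays, while at day 1 the 2 arrays that are not weak lay above them and the weak one was the lowest of the 12. The means were 10.27 ± 1.18 at day 1, 9.93 ± 0.60 at day 3 and 9.75 ± 0.46 at day 7, against 10.48 ± 0.14 in intact mice (SD, n = 3 each). The differences were -0.21 ± 0.48, -0.55 ± 0.48 and -0.73 ± 0.48 (SE), with limma adjusted p = 0.909, 0.9999 and 0.991. Without the weak arrays they were 0.47, -0.21 and -0.59, so that the direction at day 1 was set by replicate 2 of that day. In that fit the adjusted p was 0.477, 0.926 and 0.266.

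Blvrb encodes biliverdin reductase B, which reduces the biliverdin that heme oxygenase leaves and also flavins. Its signal was 6.68, 5.97 and 6.14 in intact mice, 5.69, 4.55 and 6.09 at day 1, 5.82, 6.46 and 6.81 at day 3, and 6.28, 6.17 and 5.97 at day 7. The lowest value was again on the weak array of day 1. The day 1 mean was 5.44 ± 0.80, against 6.26 ± 0.37 in intact mice (SD, n = 3 each), a difference of -0.82 ± 0.36 (SE) with a limma adjusted p = 0.547. Against day 1, the day 3 mean of 6.36 ± 0.50 was higher by 0.92 ± 0.36 (SE; limma adjusted p = 0.470). Without replicate 2 of day 1 these differences were -0.37 and 0.47.

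Of the 10 genes, 0 passed the adjusted threshold in limma in any of the comparisons. Over all probe sets, 0% passed at day 1 against intact, 0.0045% at day 3, 0.018% at day 7, 0.045% for the pooled resected groups, 0.00901% in the F test over the 4 groups, and 0% in each of the 3 comparisons between days. At an unadjusted p under 0.05 there were 2 members at day 1 (Slc40a1 higher and Blvrb lower), against 8.94% of all probe sets. There was 1 at day 3 (Slc40a1), against 4.46%, and there were 2 at day 7 (Slc40a1 higher and Cp lower), against 5.7%. Between days it was 1 for day 3 against day 1 (Blvrb), against 9.6%, and 0 for day 7 against day 3 and for day 7 against day 1, against 5.12% and 6.74%. For the pooled groups it was 1 (Slc40a1), against 5.52%, and in the F test 1 (Slc40a1), against 7.34%. Groups did not overlap for 1 member at day 1, against 16.4% of all probe sets, for 2 at day 3, against 13.9%, and for 4 at day 7, against 14.3%. The median difference of the 10 genes was -0.18 at day 1, 0.10 at day 3 and -0.14 at day 7, and that of all probe sets was -0.01, 0.00 and -0.01. Apart from Slc40a1 at each day, Cp at day 7 and Blvrb at day 1, every 95% interval of a member against intact included 0.

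**Figure D2:**
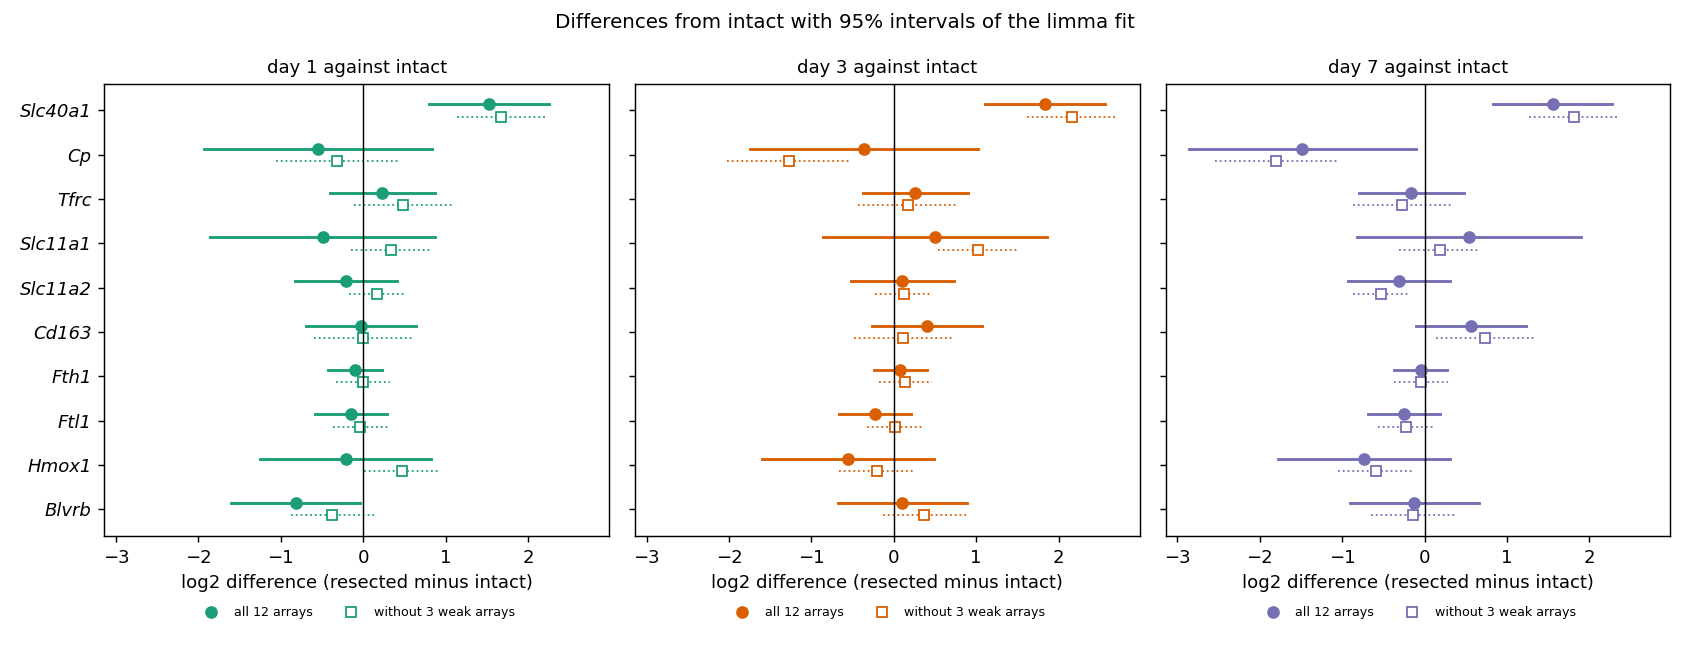
Log2 difference of each gene from intact mice at day 1, 3 and 7 (resected minus intact) with 95% intervals from limma; filled circles use all 12 arrays and open squares leave out the 3 weak arrays. Slc40a1 lies to the right of 0 on each day, between 1.53 and 1.83 with all arrays, while most intervals of the other genes cross 0.

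The other genes of iron and heme metabolism were described through 7 lists with 86 entries, of which 82 were measured. In limma, 0 of the 82 passed the adjusted threshold at day 1, 3 or 7 against intact. At an unadjusted p under 0.05 there were 9 (11%) at day 1, 5 (6.1%) at day 3 and 7 (8.54%) at day 7, beside 8.94%, 4.46% and 5.7% of all probe sets. List medians of the difference from intact lay between -0.27 (heme synthesis at day 1) and 0.17 (NRF2 targets at day 3). They moved with single arrays: without replicate 2 of day 1 the heme synthesis median at day 1 was 0.037, that of heme uptake, transport and breakdown 0.050 against -0.24 with it, and that of NRF2 targets 0.22 against -0.034. The NRF2 median at day 3 lay between 0.080 and 0.20 when single arrays were left out.

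Among 15 genes of iron uptake, the 3 with the smallest p of the F test were Lcn2, Steap4 and Slc39a8. Lcn2 encodes lipocalin 2, which binds the iron carriers of bacteria and is also a granule protein of neutrophils. It averaged 9.67 ± 0.51 in intact mice, 11.08 ± 0.68 at day 1, 11.26 ± 0.43 at day 3 and 11.01 ± 0.26 at day 7 (SD, n = 3 each). Every resected array lay above every intact one on each day, with limma adjusted p = 0.286, 0.328 and 0.389. With array weights these were 0.0309, 0.0117 and 0.0342, and without the weak arrays 0.0181, 0.0294 and 0.0478. Steap4, a metalloreductase, was higher than in intact mice by 0.82, 0.77 and 1.02 at day 1, 3 and 7, and Slc39a8, a zinc and iron importer, differed by -0.98, 0.31 and -0.70. Neither passed the adjusted threshold in limma as reported (F test adjusted p = 0.583 and 0.647), and with array weights Steap4 had an adjusted p of 0.0491 at day 3.

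Among the 13 genes of export and hepcidin control, the leading 3 were Bmp6, Hamp and Id1. Bmp6, which in the liver signals iron load to hepcidin, averaged 6.26 ± 0.35 in intact mice, 5.15 ± 0.49 at day 1, 5.28 ± 0.82 at day 3 and 4.998 ± 0.541 at day 7 (SD, n = 3 each; limma F test adjusted p = 0.627). Its differences from intact were -1.12, -0.98 and -1.27. Without the weak arrays they were -1.44 at day 3 and -1.57 at day 7, with limma adjusted p = 0.0185 and 0.0112. Hamp, the gene of hepcidin itself, which makes ferroportin be degraded, had means of 5.47 in intact mice, 5.48 at day 1, 5.07 at day 3 and 5.18 at day 7. These Hamp means lay within the range of the detection limits (5.01 to 5.69), and the resected means of Bmp6 lay within or below it. Id1, a target of BMP signalling, had means between 5.12 and 5.92 in the 4 groups.

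Storage and delivery held 9 measured genes, led by Ftmt (mitochondrial ferritin), Slc25a37 (mitoferrin 1) and Pcbp1 (an iron chaperone that loads ferritin). Their F test adjusted p in limma was 0.858, 0.859 and 0.866, and Pcbp1 differed from intact by -0.27, -0.21 and -0.19 at day 1, 3 and 7. In the 13 genes of heme uptake, transport and breakdown, Abcg2, Slc46a1 and Flvcr1 led. Abcg2, which exports porphyrins, had means of 5.57 in intact mice, 5.23 at day 1, 6.09 at day 3 and 5.65 at day 7, and Flvcr1, a heme exporter in erythroid cells, 5.38, 4.88, 5.53 and 5.13. All of these means except that of Abcg2 at day 3 lay within or below the range of the detection limits. Slc46a1 was below the detection limit on all arrays. In the 8 genes of heme synthesis, Alas1, the rate-limiting enzyme outside red cell precursors, had means of 9.43, 9.19, 9.67 and 9.80 in the same order, with all arrays of day 3 and day 7 above all intact arrays (limma F test adjusted p = 0.740). Uros and Cpox, the next of that list, were not detected.

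In the 13 regulators, Zfp36, Fbxl5 and Bach2 had the smallest p. Zfp36 encodes tristetraprolin, which has mRNA such as that of the transferrin receptor degraded when iron is low, and averaged 10.17 ± 0.12 in intact mice, 9.44 ± 0.27 at day 1, 9.76 ± 0.11 at day 3 and 9.65 ± 0.39 at day 7 (SD, n = 3 each). Fbxl5, which senses iron and removes the iron regulatory protein IRP2, averaged 7.53 ± 0.20, 8.05 ± 0.39, 8.15 ± 0.08 and 8.16 ± 0.19 in the same order. The 2 genes stood on opposite sides of intact on each day, and neither passed in limma (F test adjusted p = 0.616 and 0.619). With array weights Fbxl5 had an adjusted p of 0.0447 at day 3 and 0.0253 at day 7. Bach2 was below the detection limit on all arrays. Epas1, a hypoxia factor that endothelium also carries, was named after its values were seen because it had the lowest difference of the list, -1.35 at day 1 (limma adjusted p = 0.479). Of 11 NRF2 targets measured, the leading 3, Me1, Osgin1 and Nqo1, were below the detection limit on all arrays.

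**Figure D3:**
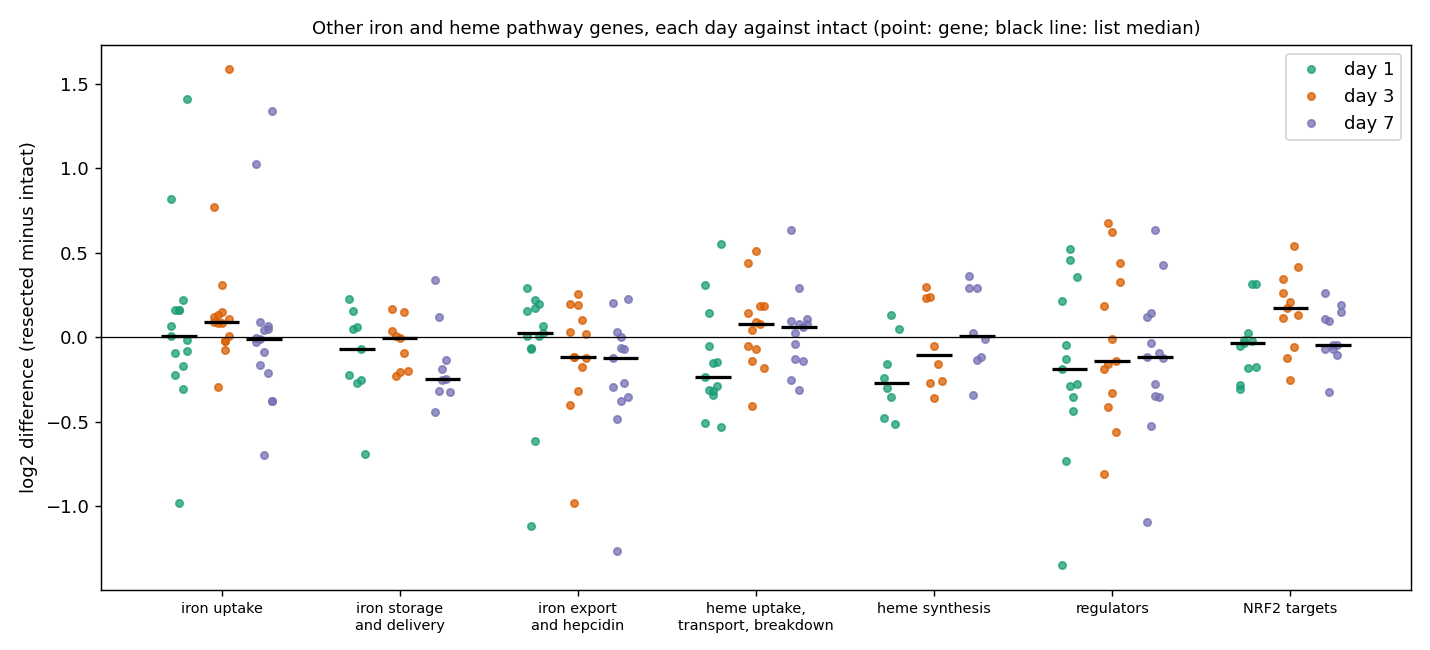
Log2 difference from intact mice (resected minus intact) of the 82 measured genes of the 7 iron and heme lists at day 1, 3 and 7, 1 point a gene, with a black line at each list's median. The medians lie between -0.27 and 0.17, the lowest (heme synthesis at day 1) becoming 0.037 without replicate 2 of day 1, and the points far above 0 in iron uptake are Lcn2 and Steap4.

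Markers of other cells differed in level between the groups. Of 13 measured neutrophil markers, 11 were higher than in intact mice at day 1, 10 at day 3 and 12 at day 7. In limma 8, 8 and 9 of them had an unadjusted p under 0.05, beside 8.94%, 4.46% and 5.7% of all probe sets. The summed neutrophil signal was 12.21 to 13.14 at day 1, 12.44 to 13.25 at day 3 and 12.83 to 13.52 at day 7, against 11.78 to 12.20 in intact mice. S100a8 and S100a9 were above the detection limit on 12 arrays and Camp on 0. None of the 13 passed the adjusted threshold at day 1, 3 or 7, and 1 passed, higher, in the pooled comparison. Fibroblast, endothelial, type 2 alveolar and airway markers mostly lay the other way. Of these, 1 fibroblast marker passed at day 3, and 2 fibroblast markers and 1 type 2 marker at day 7. Pooled, 2 fibroblast markers, 1 type 2 marker and 1 airway marker passed, all lower. Of all probe sets, 0% passed at day 1, 0.0045% at day 3, 0.018% at day 7 and 0.045% pooled. The fibroblast sum was 6.73 to 8.48 at day 1, 7.28 to 9.10 at day 3 and 7.23 to 7.73 at day 7, against 8.99 to 9.79 in intact mice. The endothelial sum was 7.30 to 9.40, 8.17 to 9.98 and 8.25 to 9.46, against 9.53 to 10.43, and the type 2 sum 8.37 to 11.03, 10.19 to 10.84 and 9.89 to 10.56, against 11.36 to 11.89. Without the weak arrays the fibroblast sum was 7.76 to 8.48, 7.28 to 7.50 and 7.23 to 7.45. The endothelial sum was then 8.80 to 9.40, 8.17 to 8.47 and 8.25 to 8.60, and the type 2 sum 10.37 to 11.03, 10.19 to 10.32 and 9.89 to 10.21. The airway sum was 9.90 to 10.34, 9.51 to 10.27 and 9.09 to 9.82, against 10.60 to 11.80. The summed monocyte and interstitial macrophage signal was 10.70 to 11.32 at day 1, 10.82 to 12.65 at day 3 and 10.93 to 11.29 at day 7, against 11.19 to 11.58 in intact mice. Its 13 measured markers did not go one way. At day 1, 5 were higher than in intact mice and 8 lower, and at day 3 and at day 7, 6 were higher and 7 lower. Apoe differed by 2.01 at day 3, and Ly6c2 by -1.92, -1.91 and -1.98 at day 1, 3 and 7 (both named after their values were seen). The summed eosinophil signal overlapped between all groups, from 7.81 to 10.06 over the 12 arrays, but its 6 markers did not go one way. At day 3, 2 were higher and 2 lower than in intact mice at an unadjusted p under 0.05 in limma, beside 4.46% of all probe sets. At day 7, 3 were higher, beside 5.7% of all probe sets. The receptors Ccr3 and Il5ra differed by 2.14 and 1.57 at day 3, and the granule genes Epx and Prg2 by -1.53 and -1.55 (these 4 were named after their values were seen). Prg2 was above the detection limit on 11 arrays, Ccr3 on 3, Epx on 2 and Il5ra on 0. Type 1 alveolar markers were lower in 7 of 7 at day 1, 5 of 7 at day 3 and 7 of 7 at day 7. The summed T and NK cell signal was 6.02 to 6.53 on the resected arrays, against 6.86 to 7.57 on the intact ones. Of its 9 measured markers, 4 were higher and 5 lower than in intact mice at day 1. At day 3 and at day 7, 2 were higher and 7 lower. Below the detection limit on all arrays of the group were 8 of the 9 in intact mice and 9 in each resected group. This sum therefore describes background as much as transcript. Of 11 erythroid markers 4 were measured. At day 1, 1 was higher than in intact mice and 3 lower, and at day 3 and at day 7 all 4 were higher. In limma, 0 of them had an unadjusted p under 0.05 on these days. Slc4a1 was above the detection limit on 2 arrays and Alas2, Klf1 and Epb42 on 0, so red cell content was not judged from them. In RNA of sorted cells taken in bulk, fewer cells of a type and less RNA per cell cannot be told apart. The part of these other cells in the values of Slc40a1, Cp, Lcn2, Bmp6 and Epas1 was not tested.

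**Figure D4:**
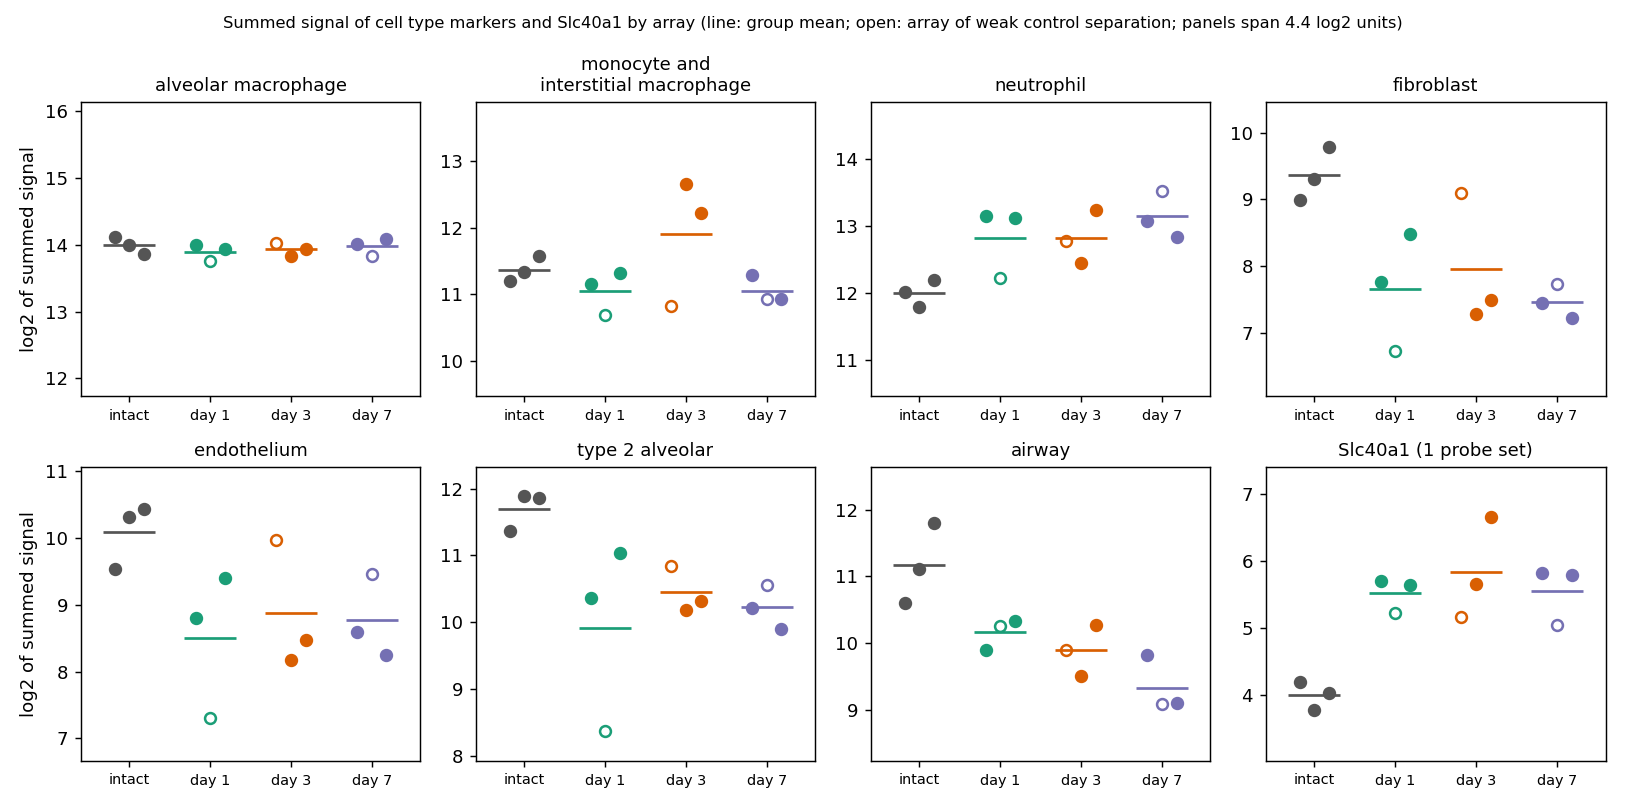
Log2 of the summed signal of each cell type's markers, and the Slc40a1 signal, on each of the 12 arrays from intact to day 7, with a line at the group mean and open points for the 3 weak arrays. The summed alveolar macrophage signal is level (13.75 to 14.11), neutrophil markers lie higher in resected mice, and fibroblast, endothelial, type 2 and airway markers mostly lie lower.

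Likeness of profile was measured by Pearson's r over the 12 arrays, against the genes that varied more than the median. The arrays share groups and quality, so these are descriptions. Slc40a1 was most like Fgd4 (r = 0.94), Slfn4 (0.86) and Tmem144 (0.84), with r of 0.94, 0.91 and 0.92 for these genes over the 9 arrays that are not weak, where no new ranking was made. Cp was most like Ptprk, Dnajb4 and Fam174b (0.94, 0.93 and 0.92), with 0.92, 0.89 and 0.89 over the 9 arrays. Hmox1 was most like Stk16, Pold4 and Gpank1 (0.95, 0.94 and 0.93), Blvrb like Rgs2, Xkr8 and Gpr132 (0.95, 0.95 and 0.94), and Slc11a1 like Dennd5a, Sema4d and Ptafr (each 0.93). Over the 9 arrays r was 0.87, 0.94 and 0.78 for the genes of Hmox1, and 0.84, 0.83 and 0.80 for those of Blvrb. For those of Slc11a1 it fell to 0.64, 0.87 and 0.76. Ftl1 was most like Snrnp40, Eif3f and Rpl9 (each 0.94), and Fth1 like Dusp12, Uqcrc2 and H1f2 (0.91, 0.91 and 0.90). Over the 9 arrays these were 0.79, 0.85 and 0.83 for Ftl1 and 0.79, 0.76 and 0.77 for Fth1. For the 3 members below the detection limit the leading genes were Fip1l1, Eid1 and Mynn (Tfrc), Ube2d2a, Pfkfb3 and Dok4 (Slc11a2), and Agpat5, Trim65 and H2-M5 (Cd163). For those of Slc11a2, r was 0.91, 0.88 and 0.87, but Spearman's rank correlation was 0.34, 0.72 and 0.35. Slc40a1 itself had r between -0.48 (with Cp) and 0.24 (with Slc11a1) with the other 9 members over the 12 arrays, and between -0.62 and 0.59 with the same 2 over the 9 arrays that are not weak.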

How the data were processed

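RNA of lung macrophages was hybridised to Clariom S mouse arrays, 12 in 4 groups of 3. Per the submitters' processing notes, the authors made the deposited log2 signals with RMA in the Transcriptome Analysis Console (versions not given), which corrects background, normalizes quantiles and summarises probes. The log2 scale was read from the values, which were used as deposited. Groups came from the titles. The labels do not say whether an array held 1 animal or several, so p-values measure the spread between these arrays, whose number limits the precision. Of 28846 probe sets, 6640 controls served only for array quality and 22206 were tested. The probe annotation gave 19572 of these 1 gene symbol and 2634 none. No genome build of the table is given in the sources used here.

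Comparisons were fitted with limma 3.58.1 in R 4.3.3 on all 12 arrays, group as the only term, with two-sided moderated tests, Benjamini-Hochberg adjustment over 22206 probe sets and a threshold of 0.05. In a comparison of 3 arrays against 3, a permutation over arrays reaches a two-sided p = 0.1 at best. This floor does not apply to the pooled comparison or the F test. Named genes were the 10 members, the 3 genes of smallest F test p in each of 7 pathway lists, and the 3 genes most like each member by Pearson's r, leaving out predicted genes, receptors of smell and microRNA genes. Members, lists, weak arrays and pooled comparison were chosen with earlier results of these data known. Alternatives were another moderation, filter, normalization or probe set rule, array weights, a replicate block and arrays left out. A fixed term for the labelling control was added after seeing the data.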

Additional observations from a re-analysis of the deposited data

How the results depend on the processing

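The limits are those of 3 arrays a group, of signals near background for Slc40a1 and Cp and below the detection limit for Tfrc, Slc11a2 and Cd163, and of 3 weak arrays spread over the resected groups. Among the list genes, signals of Hamp, Flvcr1 and, in resected mice, Bmp6 were also near background. For Slc40a1 the direction against intact was the same in all alternatives tried, from 1.42 to 1.75 at day 1, 1.42 to 2.17 at day 3, 1.42 to 2.02 at day 7 and 1.502 to 1.884 pooled. Its limma adjusted p spanned 0.0191 to 0.874, 0.00152 to 0.823, 0.00658 to 0.980 and 0.000657 to 0.505. It passed in 2 of 24 alternatives at each of day 1, 3 and 7, and in 8 of 23 pooled. At each day the 2 were array weights and leaving out the weak arrays. Nothing on the cause of these changes was tested.

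As reported, the probe sets past the adjusted threshold numbered 0 at day 1, 1 at day 3, 4 at day 7, 10 pooled and 2 in the F test. Trend and robust moderation gave 4 at day 3, 29 pooled and 6 in the F test. Leaving out dim probe sets gave 3 at day 3, 8 at day 7 and 16 pooled, and quantile normalization gave 4 at day 3. In these 3 settings 1 member (Slc40a1) passed pooled. Median centring gave 5 pooled, and fits of only the compared groups gave 0 at day 3 and 48 at day 7. With 1 probe set per gene, or their mean, it was 2 at day 3. Array weights gave 43, 298, 402, 575 and 360 in the same order, with 1, 1, 2, 1 and 1 members, and 7 for day 7 against day 3. Without the weak arrays it was 71, 252, 280, 395 and 281, with 1, 1, 2, 1 and 1 members, 6 for day 3 against day 1 and 4 for day 7 against day 3. Without the arrays carrying the labelling control it was 0 at day 7, 1 pooled and 0 in the F test. The added term for that control gave 1 at day 1, and 1 member passed pooled (Slc40a1, adjusted p = 0.0371).

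With the replicate block it was 0 at day 3, 8 at day 7 and 0 in the F test, and Slc40a1 had limma adjusted p = 0.215, 0.163, 0.235 and pooled 0.0625. The block changed no member's call. Equal numbers did not pair the arrays: 3 of 18 same-number pairs had r over 0.1 (range -0.24 to 0.26), and 3 of 12 arrays correlated best with their own number.

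Leaving out each array in turn gave 0 to 12 probe sets at day 1, 0 to 7 at day 3, 0 to 18 at day 7, 0 to 69 pooled and 0 to 8 in the F test. It gave 0 to 3 for day 3 against day 1 and 0 to 3 for day 7 against day 3. Pooled, 0 to 1 members passed, the 1 being Slc40a1 without replicate 2 of day 1 or replicate 1 of day 3. Ranges that crossed 0 in this way were, at day 1, -0.56 to 0.47 for Hmox1, -1.11 to 0.34 for Slc11a1 and -0.46 to 0.17 for Slc11a2 (each turned by replicate 2 of day 1), and -0.22 to 0.30 for Cd163 (turned by intact replicate 3). At day 3 they were -0.12 to 0.37 for Blvrb (intact replicate 2 or replicate 3 of day 3), -0.40 to 0.0080 for Ftl1 (replicate 1 of day 3) and -1.27 to 0.20 for Cp (replicate 2 of day 3). At day 7 they were -0.27 to 0.088 for Blvrb (intact replicate 1) and -0.36 to 0.091 for Tfrc (intact replicate 2). Pooled, they were -0.094 to 0.36 for Tfrc (intact replicate 1), -0.046 to 0.019 for Fth1 (intact replicate 2 or replicate 2 of day 1) and -0.022 to 0.46 for Slc11a1 (replicate 3 of day 1). Between days, Slc40a1 ranged from -0.11 to 0.63 for day 3 against day 1 and from -0.61 to 0.13 for day 7 against day 3 (both replicate 3 of day 3), and from -0.12 to 0.28 for day 7 against day 1 (replicate 2 of day 1, or 1 or 3 of day 7).

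Other settings turned small differences. Quantile normalization gave -0.11 for Slc40a1 at day 7 against day 1. Median centring gave 0.0040 for Cd163 at day 1 and 0.0046 and 0.0079 for Fth1 at day 7 and pooled. Array weights gave 0.30, 0.16 and 0.068 for Hmox1, Slc11a1 and Slc11a2 at day 1 and 0.0086 for Fth1 pooled. Without the weak arrays the day 1 values were 0.47, 0.34 and 0.17, with 0.0080 for Ftl1 at day 3 and 0.032 for Fth1 pooled. Without the arrays carrying the labelling control, Ftl1 was 0.0080 at day 3 and Blvrb 0.015 at day 7, and 0.22 with the term for that control. None of these values passed the adjusted threshold in limma.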
